A study of Arabidopsis thaliana with 18 samples.

Results

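The 10 serine carboxypeptidase-like genes with the brightest signal in Arabidopsis roots were followed across 2 ecotypes and 3 angles of the growth plate. They were chosen by their mean deposited signal over all 18 arrays, among the 29 genes whose symbol is scpl with a number and that have a probe set naming that gene alone, of 22746 probe sets in all. A probe set is the group of short oligonucleotides that reports on a transcript. The mean signal over all arrays therefore describes the choice and was not tested, while differences between groups of arrays were not used in it. All 10 genes stayed among the brightest 10 when the median or the mean of the log2 signal was used in place of the mean, and when any of the 6 groups was left out.

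Serine carboxypeptidases remove single amino acids from the carboxyl end of proteins and peptides, with a serine, an aspartate and a histidine in the active site. They enter the secretory pathway and reach the vacuole or the cell wall space. In plants the family has expanded, and some members have turned into acyltransferases. Sinapoylglucose:malate sinapoyltransferase (SNG1) and sinapoylglucose:choline sinapoyltransferase (SNG2) pass sinapate from its glucose ester to malate or choline, and BRS1 was found through an effect on brassinosteroid signalling. SCPL49 carries the second name CARBOXYPEPTIDASE Y, after the vacuolar enzyme of yeast. The other 9 genes carry only their family numbers in the annotation used here.

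The arrays compared wild-type Col-0 and WS, inbred ecotypes whose roots respond differently to a tilted surface. Every seedling was 8 days old and grown on the surface of a medium gelled with Phytagel. Roots at Agp 90° had grown on upright plates throughout, and roots at Agp 45° and Agp 135° had first grown upright for 3 days and then for 5 days on plates tilted backward (45°) or forward (135°). Each of the 6 groups has 3 ATH1 arrays, and each array was made from the pooled RNA of 5 whole roots cut from their shoots, so p-values measure the spread between such pools. In whole roots, fewer cells of a type and less RNA per cell cannot be told apart. The oligonucleotides were designed on Col-0 sequence, so a sequence difference in WS and a difference in transcript level cannot be told apart in any comparison of the ecotypes.

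Array medians ran from 193 to 208, and the authors' scaling set every array to a trimmed mean of 500.04, with 2% of values trimmed at each end. The actin control, read as its 3' over its 5' probe set, rises with degraded RNA and was 6.06 on Col-0 Agp 90° replicate 2, 6.05 on WS Agp 90° replicate 3 and at most 4.76 on the other arrays. Of 8 markers of root hairs and epidermis, 2 had a probe set that the annotation names for that gene alone: EXPA7 at 255 to 670 and EXPA18 at 439 to 1072. Of 11 markers of the shoot, 1 had such a probe set, RCA, which encodes Rubisco activase and stood at 649 to 1454. RCA was thus above the array median on every array, and whether shoot tissue has a part in it was not tested. No marker of endodermis, xylem, phloem, root cap or dividing cells had a probe set that could be used here. The annotation names no gene for 8730 probe sets, so a gene missing from it may still be on the array.

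The 10 genes fell into a brighter set of 6 and a dimmer set of 4 (mean over 18 arrays). SCPL49 had a mean signal of 2286, scpl29 of 1921, SCPL45 of 1458, scpl35 of 1178, scpl48 of 1148 and scpl26 of 1100.4. SCPL27 followed at 362, scpl28 at 318, SCPL34 at 312 and scpl25 at 307. Just outside the 10 stood scpl40 at 254, scpl42 at 225 and scpl31 at 216. The order is one of brightness, since different probe sets bind with different strength and their signals do not rank transcript amounts. Of the 29 genes, 9 had a mean signal under 32, the value added to every signal before taking the log2.

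**Figure D1:**
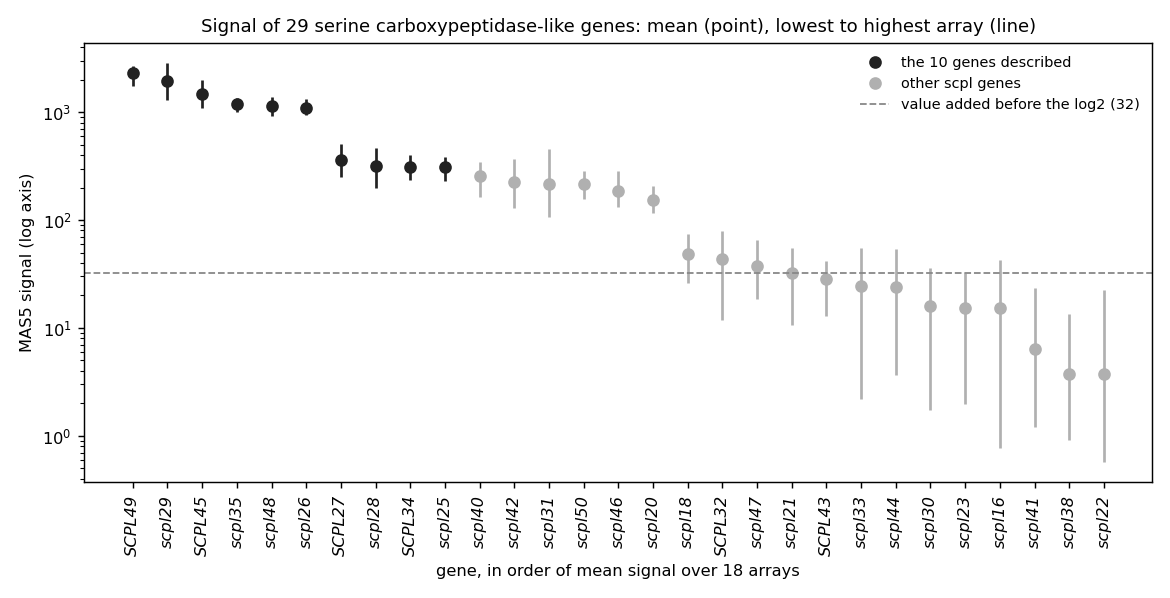
MAS5 signal (vertical log axis) of the 29 serine carboxypeptidase-like genes in order of their mean over 18 arrays (points), with lines from the lowest to the highest array and a dashed line at the added value of 32. The mean drops from 1100.4 for scpl26 to 362 for SCPL27, and from 307 for scpl25, the last of the 10, to 254 for scpl40.

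Across the 6 groups, scpl29 covered the widest range of group means of the 10 genes, 0.88 on the log2 scale, against an SD within groups of 0.094. The range was 0.69 for scpl28 with an SD of 0.236, and 0.63 for SCPL27 with an SD of 0.137. The narrowest were SCPL49, at 0.26 with an SD of 0.157, and scpl26, at 0.27 with an SD of 0.112. The steadiest gene within groups was scpl35, with an SD of 0.0626 and a range of 0.33. These log2 values are of the signal plus 32 after quantile normalization, on which every test below was made. Adding 32 makes the fold changes of dim genes smaller than those of their raw signals.

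**Figure D2:**
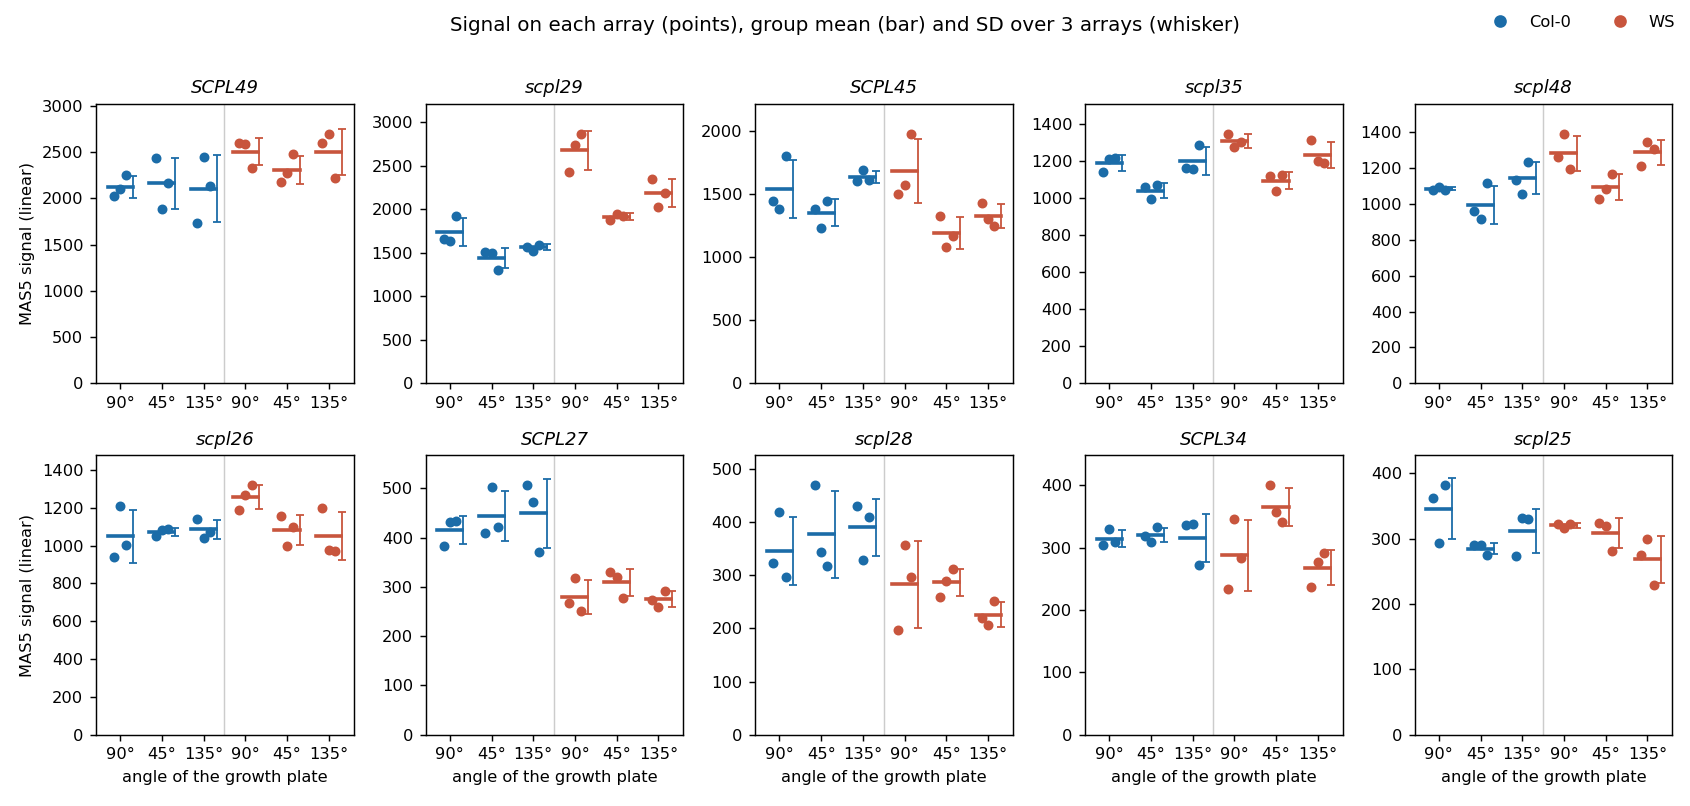
MAS5 signal (vertical linear axis from 0, one scale per gene) on each array for the 10 genes at plate angles of 90°, 45° and 135° (horizontal axis), Col-0 in blue and WS in red, with points for arrays, a bar for the mean and a whisker for the SD of 3 arrays. In scpl29 the WS arrays lie above the Col-0 arrays at every angle, and in SCPL27 the 9 Col-0 arrays (370.7 to 505.8) lie above the 9 WS arrays (251.3 to 329.8).

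The ecotypes differed in scpl29 and SCPL27 at every angle, and in opposite directions. scpl29 was higher in WS by 1.33-fold to 1.54-fold in mean signal, and SCPL27 was higher in Col-0 by 1.44-fold to 1.64-fold. scpl28 was higher in Col-0 at Agp 135°, and over the mean of the 3 angles scpl28 was again higher in Col-0 while scpl48 was higher in WS. A gene was called changed at an adjusted p under 0.05 in limma's moderated test, adjusted by the Benjamini-Hochberg method over all 22746 probe sets.

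For scpl29, upright Col-0 arrays read 1659, 1638 and 1919 and upright WS arrays 2432, 2741 and 2868. At Agp 45° the Col-0 arrays read 1515, 1494 and 1307 and the WS arrays 1874, 1946 and 1927. At Agp 135° the Col-0 arrays read 1572, 1525 and 1591 and the WS arrays 2347, 2025 and 2188. At each angle the lowest WS array was above the highest Col-0 array. Only across angles did the ecotypes meet, where the highest upright Col-0 array (1919) passed the lowest WS array at Agp 45° (1874). The log2 fold change of Col-0 against WS was -0.60 ± 0.0892 (SE) at Agp 90° (adjusted p = 0.000208), -0.40 at Agp 45° (adjusted p = 0.0062) and -0.49 at Agp 135° (adjusted p = 0.00134). Over the mean of the 3 angles it was -0.50 ± 0.0515 (SE), with an adjusted p of 1.67e-06.

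In order of mean signal, the groups for scpl29 ran from WS Agp 90° at 2680.5 ± 224 (SD, n = 3) through WS Agp 135° at 2187 ± 161 and WS Agp 45° at 1915 ± 37.4 to Col-0 Agp 90° at 1739 ± 157, Col-0 Agp 135° at 1563 ± 33.9 and Col-0 Agp 45° at 1439 ± 114. Neighbouring groups in this order did not overlap, except WS Agp 45° with Col-0 Agp 90°. In both ecotypes the order of the angles was the same, upright first, forward tilt second and backward tilt last.

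SCPL27 gave the reverse order of ecotypes. Upright Col-0 arrays read 382.6, 431.3 and 432.7, against 267.8, 318.5 and 251.3 in WS. At Agp 45° Col-0 read 409.9, 501.7 and 420.7 and WS 329.8, 319.4 and 277.7. At Agp 135° Col-0 read 505.8, 471.1 and 370.7 and WS 273.1, 259.2 and 291.5. No array of an ecotype reached into the range of the other, at any angle. The log2 fold change of Col-0 against WS was 0.50 ± 0.115 (SE) at Agp 90° (adjusted p = 0.00795), 0.41 at Agp 45° (adjusted p = 0.0256), 0.63 at Agp 135° (adjusted p = 0.00132) and 0.51 ± 0.0663 (SE) over the mean of the 3 angles (adjusted p = 1.91e-05). The call at Agp 90° was lost without both arrays of high actin ratio (adjusted p = 0.0917), and that at Agp 45° was lost without WS replicate 3 (adjusted p = 0.106), without Col-0 replicate 2 (adjusted p = 0.119) and when only the compared groups were fitted (adjusted p = 0.072), with Col-0 higher in each.

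scpl28 varied more between arrays than any other of the 10 genes. At Agp 135° its Col-0 arrays read 430.4, 328.8 and 410.1 and its WS arrays 219.4, 205.8 and 251.2, which do not overlap. The log2 fold change there was 0.69 ± 0.179 (SE), with an adjusted p of 0.0165, and the ratio of mean signals was 1.73. The call was lost without WS replicate 2 (adjusted p = 0.0609), without Col-0 replicate 1 (adjusted p = 0.0638) and without Col-0 replicate 3 (adjusted p = 0.0591). At Agp 90° the arrays of the ecotypes overlapped (295.7 to 418.4 in Col-0, 196.1 to 357.7 in WS) and at Agp 45° they did not (317.5 to 468.8 against 259.2 to 310.9), and neither difference was called. Over the mean of the 3 angles Col-0 was higher by 0.41 ± 0.104 (SE) on the log2 scale (adjusted p = 0.0068).

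scpl26 is the direct neighbour of scpl28 on chromosome 2 in the RefSeq annotation, and it had no ecotype call at any angle. The Col-0 mean of scpl26 over 9 arrays was 1070.01 and the WS mean 1131, a log2 fold change of -0.10 with a 95% interval from -0.22 to 0.03. The intervals of the 2 genes over the mean of the 3 angles, 0.19 to 0.63 for scpl28 and -0.22 to 0.03 for scpl26, do not overlap, though the difference between the genes was not tested. At Agp 90° alone scpl26 was lower in Col-0 by an uncalled -0.27 (adjusted p = 0.0913), which was called without Col-0 replicate 2 (adjusted p = 0.0314).

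scpl48 was called only over the mean of the 3 angles, with Col-0 against WS at -0.20 ± 0.0536 (SE) on the log2 scale and an adjusted p of 0.00863. Upright, its Col-0 arrays read 1080.3, 1095 and 1080.3 and its WS arrays 1259, 1391 and 1195, which do not overlap. At Agp 45° the values were 958.2, 913.6 and 1115 in Col-0 and 1026, 1085 and 1169 in WS, and at Agp 135° they were 1133, 1058 and 1236 in Col-0 and 1211, 1348 and 1306 in WS. The ecotypes overlapped on tilted plates. SCPL49 and scpl35 leaned the same way without a call, at -0.19 (adjusted p = 0.0709) and -0.10 (adjusted p = 0.078), and both were called under a few of the alternatives.

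Counted over the 10 genes, 2 were called at Agp 90° and 2 at Agp 45° (scpl29 and SCPL27), 3 at Agp 135° (with scpl28) and 4 over the mean of the 3 angles (with scpl48). Among all probe sets the share called was 13.1% at Agp 90°, 13% at Agp 45°, 13.5% at Agp 135° and 29% over the mean of the angles. The calls among the 10 genes were split evenly by direction over the mean, 2 higher in Col-0 and 2 higher in WS, and their median log2 fold change was -0.04, against -0.03 over all probe sets. SCPL45, SCPL34 and scpl25 had no ecotype call, and their log2 fold changes over the mean of the angles were 0.10, 0.02 and 0.03. The 2 root hair markers were also higher in Col-0 over the mean of the angles (EXPA7 by 0.44, adjusted p = 0.0315; EXPA18 by 0.42, adjusted p = 0.0139), their summed signal standing at 886 to 1662 in Col-0 and 711 to 1062 in WS. RCA stood at 652 to 1454 in Col-0 and 649 to 1400.4 in WS. The part of other cell types in the ecotype differences was not tested.

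**Figure D3:**
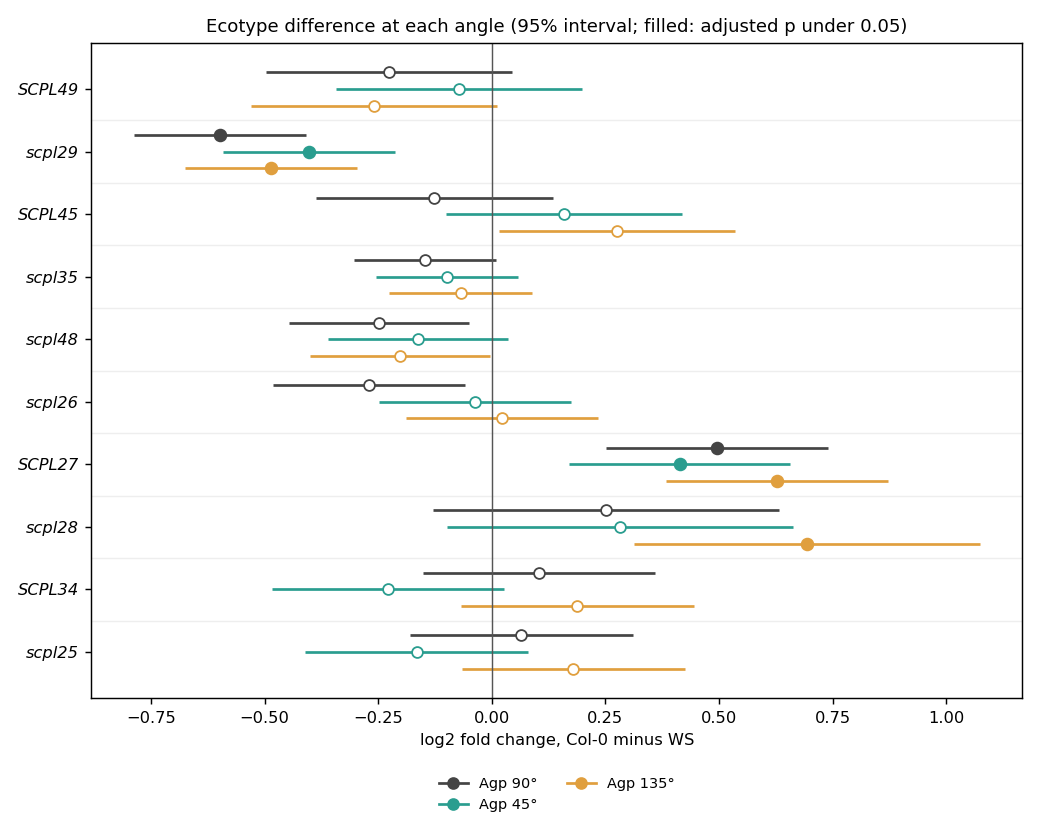
Log2 fold change of Col-0 minus WS (horizontal axis) with 95% intervals for the 10 genes at Agp 90° (grey), 45° (green) and 135° (yellow), filled where the adjusted p is under 0.05. scpl29 lies at -0.60, -0.40 and -0.49, SCPL27 at 0.50, 0.41 and 0.63, and scpl28 is filled only at Agp 135° (0.69).

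Among the comparisons of tilted with upright plates, scpl29 in WS tilted backward was the single call in the 10 genes. Its signal went from 2680.5 ± 224 (SD, n = 3) on upright plates to 1915 ± 37.4 at Agp 45°, a 1.40-fold lower mean, and the highest array at Agp 45° (1946) was below the lowest upright array (2432). The log2 fold change was -0.47 ± 0.0892 (SE), with an adjusted p of 0.0172. This is 1 of 10 genes, where 0.985% of all probe sets were called. It did not hold in every setting: the adjusted p was 0.141 when only the compared groups were fitted, 0.082 without both arrays of high actin ratio, 0.0707 without WS Agp 90° replicate 2, 0.0863 without WS Agp 90° replicate 3, 0.0682 without WS Agp 45° replicate 1 and 0.0517 without WS Agp 45° replicate 2, with the log2 fold change between -0.53 and -0.43 over all alternatives. The summed root hair markers stood at 711 to 987 at WS Agp 45° and 841 to 1062 at WS Agp 90°, and their part in the difference was not tested.

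scpl29 was lower on tilted plates in the other comparisons too, without a call. In Col-0 it was -0.28 at Agp 45° (adjusted p = 0.461) and -0.16 at Agp 135° (adjusted p = 0.78), and in WS at Agp 135° it was -0.27 (adjusted p = 0.282). In each of these the 3 tilted arrays lay below the 3 upright ones. The change with backward tilt in WS minus that in Col-0 was -0.20, with a 95% interval from -0.46 to 0.07 (adjusted p = 0.739), which includes 0, so a difference between the ecotypes in this response was not shown. The tilted groups of an ecotype share the same upright arrays, so these values are not independent of each other.

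SCPL45 had a mean as much lower at WS Agp 45° as scpl29, but a larger spread. Its upright WS arrays read 1506, 1575 and 1981, its Agp 45° arrays 1329, 1083 and 1166 and its Agp 135° arrays 1434, 1305 and 1247. Both tilted groups lay wholly below the upright one. The log2 fold change was -0.47 ± 0.123 (SE) at Agp 45° (adjusted p = 0.0918) and -0.31 at Agp 135° (adjusted p = 0.377). With the dimmest 40% of probe sets left out, the first passed at an adjusted p of 0.0454, the only 1 of 14 alternatives in which it did. Over these 14 its log2 fold change ran from -0.54 to -0.35, and its adjusted p in limma reached 0.286. The upright WS array at 1981 is replicate 3, which has a high actin ratio. In Col-0 the arrays read 1447, 1381 and 1808 upright, 1383, 1234 and 1450.4 at Agp 45° and 1608, 1692 and 1612 at Agp 135°. Here the forward-tilted mean was not below the upright one, and its log2 fold change was 0.09, with a 95% interval from -0.17 to 0.35. The WS minus Col-0 difference in the response to forward tilt was -0.40 (95% interval -0.77 to -0.03), with an unadjusted p of 0.0345 in limma's test and an adjusted p of 0.69. Over its 20 alternatives this difference ran from -0.52 to -0.20 and was never called.

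SCPL34 leaned the other way in WS. Its WS arrays read 400.0, 357.0 and 340.8 at Agp 45°, against 233.0, 346.3 and 283.4 upright and 237.0, 276.4 and 291.3 at Agp 135°. The backward-tilted arrays lay above all forward-tilted ones and overlapped the upright ones. The log2 fold change of Agp 45° was 0.36 against Agp 90° (adjusted p = 0.206) and 0.45 against Agp 135° (95% interval 0.19 to 0.70, adjusted p = 0.16). In Col-0 the 9 arrays lay between 271.7 and 338.9, and the log2 fold change of Agp 45° against Agp 90° was 0.03 with a 95% interval from -0.23 to 0.28.

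Among the other genes, scpl35 and scpl48 had lower means at Agp 45° than upright in both ecotypes, by log2 fold changes of -0.19 and -0.13 in Col-0 and -0.24 and -0.21 in WS, none called (smallest adjusted p = 0.169, scpl35 in WS). scpl25 was lower at Agp 45° in Col-0 and at Agp 135° in WS, by -0.24 and -0.25, neither called. scpl26 was lower on both tilts in WS (-0.19 and -0.24) and stood at 0.04 and 0.05 in Col-0, none called. SCPL49, SCPL27 and scpl28 had 95% intervals that included 0 in all 4 comparisons of a tilted with an upright group. The half-width of the 95% interval for a comparison of 2 groups ran from 0.16 on the log2 scale for scpl35 to 0.38 for scpl28. These intervals are not adjusted for the number of probe sets, so a call needed a larger change. SCPL45 in WS at Agp 45°, at -0.47 with a half-width of 0.26, was not called.

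Over the 10 genes, 0 were called in Col-0 at Agp 45° (0.022% of all probe sets were) and at Agp 135° (0%), 1 in WS at Agp 45° and 0 in WS at Agp 135° (0.0528%). At an unadjusted p under 0.05 in limma the counts were 2, 0, 5 and 4 of 10, where the share of all probe sets was 7.35%, 6.73%, 12.5% and 10.6%. The 10 genes were chosen as bright and all probe sets include dim ones, so these shares do not compare like with like. The median log2 fold change of the 10 genes was -0.17 in WS at Agp 45° and -0.16 in WS at Agp 135°, where that of all probe sets was 0.0095 and -0.0012. In Col-0 it was -0.06 and 0.03. Between backward and forward tilt 0 of the 10 were called in Col-0 (0% of all) and 0 in WS (0.356% of all), with 2 and 4 at an unadjusted p under 0.05 (4.1% and 9.86% of all). The interactions of ecotype with backward and with forward tilt also gave 0 of 10, against 0% and 0% of all probe sets, with 0 and 1 at an unadjusted p under 0.05 (7.35% and 6.87% of all).

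**Figure D4:**
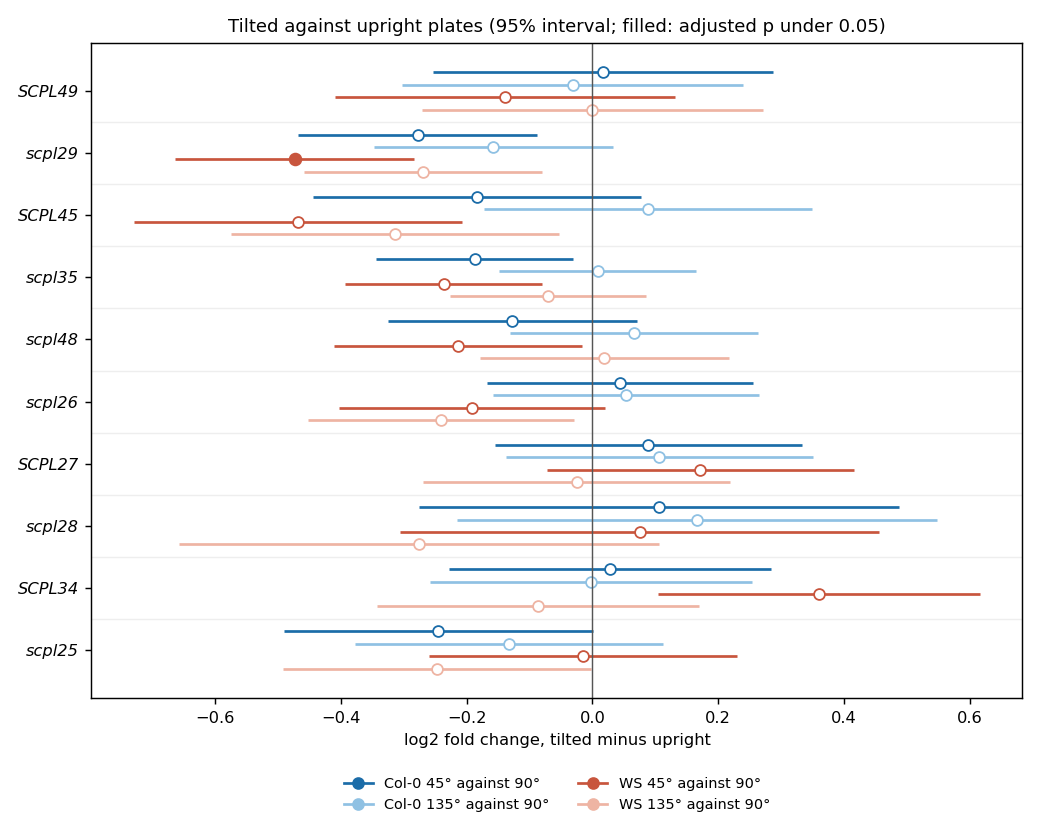
Log2 fold change of tilted minus upright plates (horizontal axis) with 95% intervals for the 10 genes, Col-0 in blues and WS in reds, darker for 45° and paler for 135°, filled where the adjusted p is under 0.05. scpl29 in WS at 45° (-0.47) is the single filled point, SCPL45 lies at the same value with a wider interval, and SCPL34 in WS at 45° lies at 0.36.

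For the 4 genes with a call, the genes of closest pattern were taken by Pearson's r of the log2 signal over the 18 arrays, as a description. scpl29 went with JAL22, a jacalin-related lectin gene, at 0.969, and with AT4G14060 at 0.948. Within Col-0 alone (9 arrays) these were 0.925 and 0.81, and within WS alone 0.914 and 0.869. scpl48 went with EXPA4, which encodes an expansin that loosens cell walls, at 0.889 (0.824 within Col-0, 0.825 within WS) and with AT1G69160 at 0.887 (0.722 within Col-0, 0.916 within WS). SCPL27 went with AT1G22330 at 0.936 and AT5G62900 at 0.934, which were 0.376 and 0.393 within Col-0 alone and 0.971 and 0.848 within WS alone. scpl28 went with AT2G25560 at 0.855 (0.603 within Col-0, 0.927 within WS) and with the receptor kinase gene B120 at 0.836 (0.699 within Col-0, 0.731 within WS). The arrays of an ecotype share its level, which enters every r over 18 arrays. The partner genes were picked as those of highest r over these same arrays, which also favours high values within an ecotype.

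Of the 19 family members outside the 10, scpl42, scpl20 and scpl30 were called, in ecotype comparisons alone and higher in Col-0 in each. The count was 2 of 19 at each of Agp 90°, 45° and 135°, where 13.1%, 13% and 13.5% of all probe sets were called. Over the mean of the angles it was 3 of 19, where 29% of all probe sets were called. scpl42 had a mean signal of 286 over the 9 Col-0 arrays and 163 over the 9 WS arrays, with no overlap and a log2 fold change of 0.67 ± 0.0943 (SE, adjusted p = 4.51e-05). It was called at Agp 90° (0.74, adjusted p = 0.00585), Agp 45° (0.67, adjusted p = 0.0112) and Agp 135° (0.60, adjusted p = 0.0222), the last lost without WS replicate 3 (adjusted p = 0.115), without Col-0 replicate 2 (adjusted p = 0.114) and in the fit of the compared groups only (adjusted p = 0.0956). scpl20 was called at Agp 90° (0.41, adjusted p = 0.0265), a call lost without WS replicate 1 or 3, without Col-0 replicate 1 or 3 (adjusted p from 0.0692 to 0.126) and in the fit of the compared groups only (adjusted p = 0.133), and over the mean of the angles (0.29, adjusted p = 0.00393). scpl30 is dim, between 1.74 and 35.6 on the 18 arrays, with a mean of 26.1 in Col-0 and 5.74 in WS at Agp 45°. On upright plates its means were 18.3 in Col-0 and 22.6 in WS, with no call (log2 fold change -0.04, adjusted p = 0.939). Its call at Agp 45° (adjusted p = 0.0338) was kept in 7 of 13 alternatives, that at Agp 135° (adjusted p = 0.0403) in 4 of 13, and it was also called over the mean of the angles (adjusted p = 0.00972). At signals mostly below the added 32 the size of its log2 fold change is set by that value, and over the mean of the angles it ran from 0.17 to 1.84 over the alternatives. scpl40 and scpl31, just below the 10, had no call. None of the 19 was called in a comparison of angles.

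SNG1, SNG2 and BRS1, the family members with a known role under another symbol, had no probe set that could be used here. A list held 25 genes on the route from phenylalanine to sinapate esters and in brassinosteroid perception. Of these, the annotation gave HCT, REF1, UGT84A1 and UGT84A3 a probe set naming that gene alone. Among them UGT84A3 was called. It encodes a glucosyltransferase that makes the glucose esters of hydroxycinnamates, the acyl donors that family acyltransferases use. Its signal was 54.7 ± 20.0 (SD, n = 3) in upright Col-0 and 203 ± 17.6 in upright WS, a log2 fold change of -1.47 (adjusted p = 2.98e-05). The value was -1.32 at Agp 45° (adjusted p = 0.000101) and -1.64 at Agp 135° (adjusted p = 9.98e-06), with no overlap of the ecotypes at any angle. None of the genes of this list with such a probe set was called in a comparison of angles.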

How the data were processed

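RNA of whole roots was hybridized to Affymetrix ATH1 arrays, 3 for each of 6 groups of ecotype and angle. The authors deposited MAS5 intensities on a linear scale, made in Affymetrix Expression Console (its version is not given in the sources used here). The study's own tests used RMA, which needs the raw images and was not computed. A pseudocount of 32 was added to the 22810 intensities of each array, log2 values were quantile normalized, and 64 control probe sets were left out, with no filter on dim probe sets. In limma 3.58.1 under R 4.3.3, 6 group means were fitted to 18 arrays with 12 residual and 3.45 prior degrees of freedom. P-values of each of the 12 comparisons were adjusted by the Benjamini-Hochberg method, 2-sided. The code was tested on simulated data.

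Names came from the platform annotation (13513 probe sets with 1 gene, 503 with several, 8730 with none; only the first were named), and neighbours from the RefSeq table of assembly TAIR10.1. The table of gene names held 49 scpl genes, and 2 scpl probe sets with several genes were left out. The genes and lists were chosen with earlier results of these data known. Named are the 10 genes, the 3 ranked just below, other scpl genes and pathway genes past the threshold, family members of other symbol, and the 2 closest patterns of each called gene.

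The sample labels and the study's methods do not say whether arrays of the same replicate number were paired, and the main fit did not pair them. The alternatives were no quantile normalization, pseudocounts of 1 and 100, leaving out the dimmest 40%, an intensity trend, a fit of the compared groups only, a replicate block, each array left out in turn and, chosen after seeing the data, leaving out both arrays of high actin ratio. The 3 arrays of a group limit the precision.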

Additional observations from a re-analysis of the deposited data

How the results depend on the processing

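Of 120 pairs of a gene of the 10 and a comparison, 12 were called, 8 of these kept the call under every alternative run and 0 changed sign. Of the 108 not called, 104 stayed so, and 33 changed sign under at least 1 alternative. The count of called genes for WS Agp 45° against Agp 90° was 1, and became 2 with the dimmest 40% of probe sets left out, 0 with the compared groups only, 0 without both arrays of high actin ratio, and 0 to 1 with each array left out in turn. For Col-0 against WS at Agp 90° the count was 2 and became 1 without both arrays of high actin ratio. Without Col-0 Agp 90° replicate 2 alone, scpl26 was called there in addition to scpl29 and SCPL27 (adjusted p = 0.0314). At Agp 45° it was 2 and became 1 with the compared groups only, and ranged from 1 to 2 with each array left out in turn. All of these settings but the first fit fewer arrays, and the first tests fewer probe sets. The counts of the other comparisons stayed within 1.5 times of their main values.

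SCPL49 over the mean of the angles was called under 5 of its 25 alternatives and scpl35 under 3 of 25. Same-numbered arrays did not deviate together. Residuals correlated by -0.229 to 0.146 over 45 such pairs, the median being -0.00285, and of 18 arrays 5 had a same-numbered array as the closest. With the replicate block, the count for WS Agp 45° against Agp 90° was 1 and no call among the 10 genes changed, while the call of scpl30 at Agp 135° was lost (adjusted p = 0.0569).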
